A study of Mus musculus with 3 samples.

Results

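The Notch genes described here are 10 genes named by symbol: the receptors Notch1, Notch2, Notch3 and Notch4, the ligands Jag1 and Jag2, and the target genes Hes1, Hey1, Hey2 and Heyl. All 10 were found, once each, among the 31730 genes of the deposited table. They were chosen by name and not by their values, and are given across the deposited cell types and across 3 sorted populations of lung mesenchyme.

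Notch receptors are single-pass membrane proteins that are switched on by a ligand on a neighbouring cell. Binding of a Jagged or Delta-like ligand leads to cleavage by ADAM proteases and then by gamma-secretase, and the freed intracellular domain joins the DNA-binding protein RBPJ and a Mastermind coactivator at target genes. Hes and Hey genes, which encode basic helix-loop-helix repressors, are the best known of these targets. In blood vessels Notch3, Jag1 and Heyl are known from the mural cells (smooth muscle and pericytes), while Notch1, Notch4 and Hey1 are known from the endothelium.

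Single-cell RNA sequencing (droplets, 3' ends, unique molecular identifiers or UMIs) was carried out on lung cells of mouse pups at postnatal day 7. Every pup carried 3 alleles, each over a wild-type copy: Fgf18-CreERT2, a tamoxifen-activated Cre recombinase driven from the Fgf18 locus, a Cre-dependent TDTomato reporter at ROSA, and PdgfrαEGFP, a green reporter driven from the Pdgfra locus. All received tamoxifen on postnatal days 2 to 5, so the groups share every allele and the treatment, and each gate gave 1 library. The GFP-high tdT-high gate, called labelled below since its cells carry the mark left by Fgf18-CreERT2, gave 1511 cells and 34506226 UMIs. The GFP-high tdT-negative gate, called unlabelled GFP-high, gave 3347 cells and 68692834 UMIs, and the GFP-low tdT-negative gate, called GFP-low, gave 1284 cells and 26586489 UMIs.

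The label is not a measure of Fgf18 itself: its transcript stood at 86.3 UMIs per 1e+06 (CPM) in labelled cells and still at 51.4 CPM in unlabelled GFP-high cells. The sources used here do not say whether a library pooled several pups. With 1 library per gate no test was possible, no p-value was computed, and every difference below is between single libraries. The intervals given are exact, at 95%, and cover counting error only, and the word higher or lower is backed by a count only from 2-fold on log2(CPM + 1), in genes with at least 10 UMIs in either group.

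The names of the 10 cell types are those deposited with the data: 3 myofibroblast types (MyoFB-IMR, MyoFB-Int and MyoFB-Ter), 3 dividing types (DivFB), matrix fibroblast types (MatFB-Type 1, MatFB-Type 2 and MatFB-Im,Cuff) and adventitial fibroblasts (AdvFB). A type in a library was given a level where it held at least 50 cells, which left 14 such units. Marker levels largely followed the names: the 10 listed adventitial markers summed to 14204 CPM in unlabelled GFP-high AdvFB cells, and the 10 listed myofibroblast markers to between 15586 and 18313 CPM in the MyoFB units of that gate and of the labelled gate. One exception touches the results below. Of the 148 AdvFB cells of the GFP-low library, 56 formed a cluster with 1 further cell of that library when the cells were clustered without any Notch gene, and these 56 held 11 listed smooth muscle markers at a summed 10871 CPM, against 354 CPM in the other 92. Their adventitial markers summed to 2670 CPM, against 10585 CPM in the other 92, and Dcn, a proteoglycan gene that marks adventitial fibroblasts, stood at 478 and 3901 CPM in the same order. They are called contractile AdvFB cells here. Few cell barcodes were shared between libraries: 1 between labelled and unlabelled GFP-high, and 3 between unlabelled GFP-high and GFP-low.

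All 10 genes are protein-coding, and their places in the GENCODE annotation of GRCm38 are as follows. Notch1 spans chr2:26457903-26516663 and Jag1 spans chr2:137081456-137116644, both on the minus strand. Notch2 spans chr3:98013527-98150361 on the plus strand and Hey1 spans chr3:8663359-8667256 on the minus strand. Notch3 spans chr17:32120820-32166852 on the minus strand and Notch4 spans chr17:34564268-34588503 on the plus strand. Jag2 spans chr12:112907819-112929776 on the minus strand. Hes1 spans chr16:30064384-30067796 and Heyl spans chr4:123233556-123249875, both on the plus strand, and Hey2 spans chr10:30832359-30842801 on the minus strand. The gene 0610009E02Rik, on the opposite strand, overlaps Notch1 and held 448 UMIs beside the 1557 of Notch1. An antisense gene, Gm17276, overlaps Notch3 and held 280 UMIs beside the 2548 of Notch3, and 2 unnamed genes on the same strand as Notch2 held 470 and 408 UMIs beside its 8568. Whether counting used strand is not given, so reads of these neighbours cannot be told apart from those of Notch1, Notch3 and Notch2.

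The promoter sequences that bear on the pattern described below are those of the receptor and the target gene with the largest ratios in the contractile AdvFB cells. RefSeq entries (GRCm38.p6) were matched for 7 of the 10 genes, and those of Notch3 (chr17:32166891-32167140) and Hey2 (chr10:30842784-30843033) are shown. Each runs over the 250 bases before the RefSeq start, 5′ to 3′ on the gene's own strand, which is minus for both, and capitals mark the match to the RBPJ core motif TGGGAA, here on the opposite strand.
Notch3: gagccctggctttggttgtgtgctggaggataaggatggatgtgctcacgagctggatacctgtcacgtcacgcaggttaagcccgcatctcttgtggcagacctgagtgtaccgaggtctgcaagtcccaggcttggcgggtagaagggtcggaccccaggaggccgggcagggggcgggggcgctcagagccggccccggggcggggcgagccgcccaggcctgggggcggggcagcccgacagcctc
Hey2: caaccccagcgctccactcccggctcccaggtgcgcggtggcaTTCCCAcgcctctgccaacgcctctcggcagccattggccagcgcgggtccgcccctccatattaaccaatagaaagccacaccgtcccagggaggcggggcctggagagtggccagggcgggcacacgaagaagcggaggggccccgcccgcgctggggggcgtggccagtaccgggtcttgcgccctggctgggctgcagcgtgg

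Hes1, Hey1 and Heyl had no matched entry and were not searched, so Hey2 was the only target gene among the 7. Of the 7 matched genes, Hey2 held a match to TGGGAA, at position -207 from the RefSeq start, and the same match reads as the longer form GTGGGAA. RefSeq starts differ from the GENCODE spans given above: the windows of Notch1 (chr2:26503823-26504072) and Jag2 (chr12:112929496-112929745) lie inside those spans, and those of Notch2, Notch4, Jag1 and Hey2 reach into them. Both strands were searched, and the longer form lies within matches of the shorter. Over 32851 promoters of the same length, 21.6% held TGGGAA and 5.42% held GTGGGAA, so a match in 1 of 7 is a description and not a site. The E box CACGTG, found in 6.02% of all promoters, and the CArG box, found in 1.47%, were not matched in any of the 7 windows.

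Across whole libraries the receptors and targets were spread unevenly over the gates. Notch2 was even, at 63.3 CPM in labelled, 67.9 CPM in unlabelled GFP-high and 64.6 CPM in GFP-low cells. Notch4 went with the GFP-high gates, at 3.68 and 4.06 CPM in the labelled and unlabelled GFP-high libraries, against 0.489 CPM in the GFP-low library. The remaining receptors, Jag1 and the Hey genes were at their highest in the GFP-low library. Notch3 stood at 12.5 CPM in labelled, 18.4 CPM in unlabelled GFP-high and 32.1 CPM in GFP-low cells, and Heyl at 8.0, 10.2 and 24.2 CPM over the same libraries. Hey2 stood at 0.145, 1.15 and 5.15 CPM in that order of libraries.

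Between unlabelled GFP-high and GFP-low cells as a whole, 1 of the 10 genes was at least 2-fold higher, where 6.38% of all 23380 genes counted were, and 2 were at least 2-fold lower, where 5.36% were. Notch4 was 8.31-fold higher in unlabelled GFP-high cells (95% interval 4.78 to 15.8). Hey2 was 4.48-fold lower (3.37 to 5.99) and Heyl 2.36-fold lower (2.12 to 2.63). With a pseudocount of 5 these 3 were under 2-fold (log2 ratios of 0.72, -0.72 and -0.94), and Heyl was so too after thinning to 5000 UMIs (-0.78). The median log2 ratio of the 10 genes was -0.70, beside 0.11 over all genes counted. Between labelled and unlabelled GFP-high cells as a whole, 0 of 10 were past 2-fold in either direction, where 0.66% of genes were higher and 1.92% lower, and the median was -0.34 beside -0.02. The types make up very different shares of the libraries: MyoFB types hold 1458 of 1511, 2659 of 3347 and 66 of 1284 cells in the labelled, unlabelled GFP-high and GFP-low libraries. With the types of the unlabelled GFP-high library weighted to those of the labelled library, the log2 ratio of Jag1 was 0.00 in place of -0.60 and that of Heyl was 0.37 in place of -0.32. The levels are therefore given by type.

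**Figure D1:**
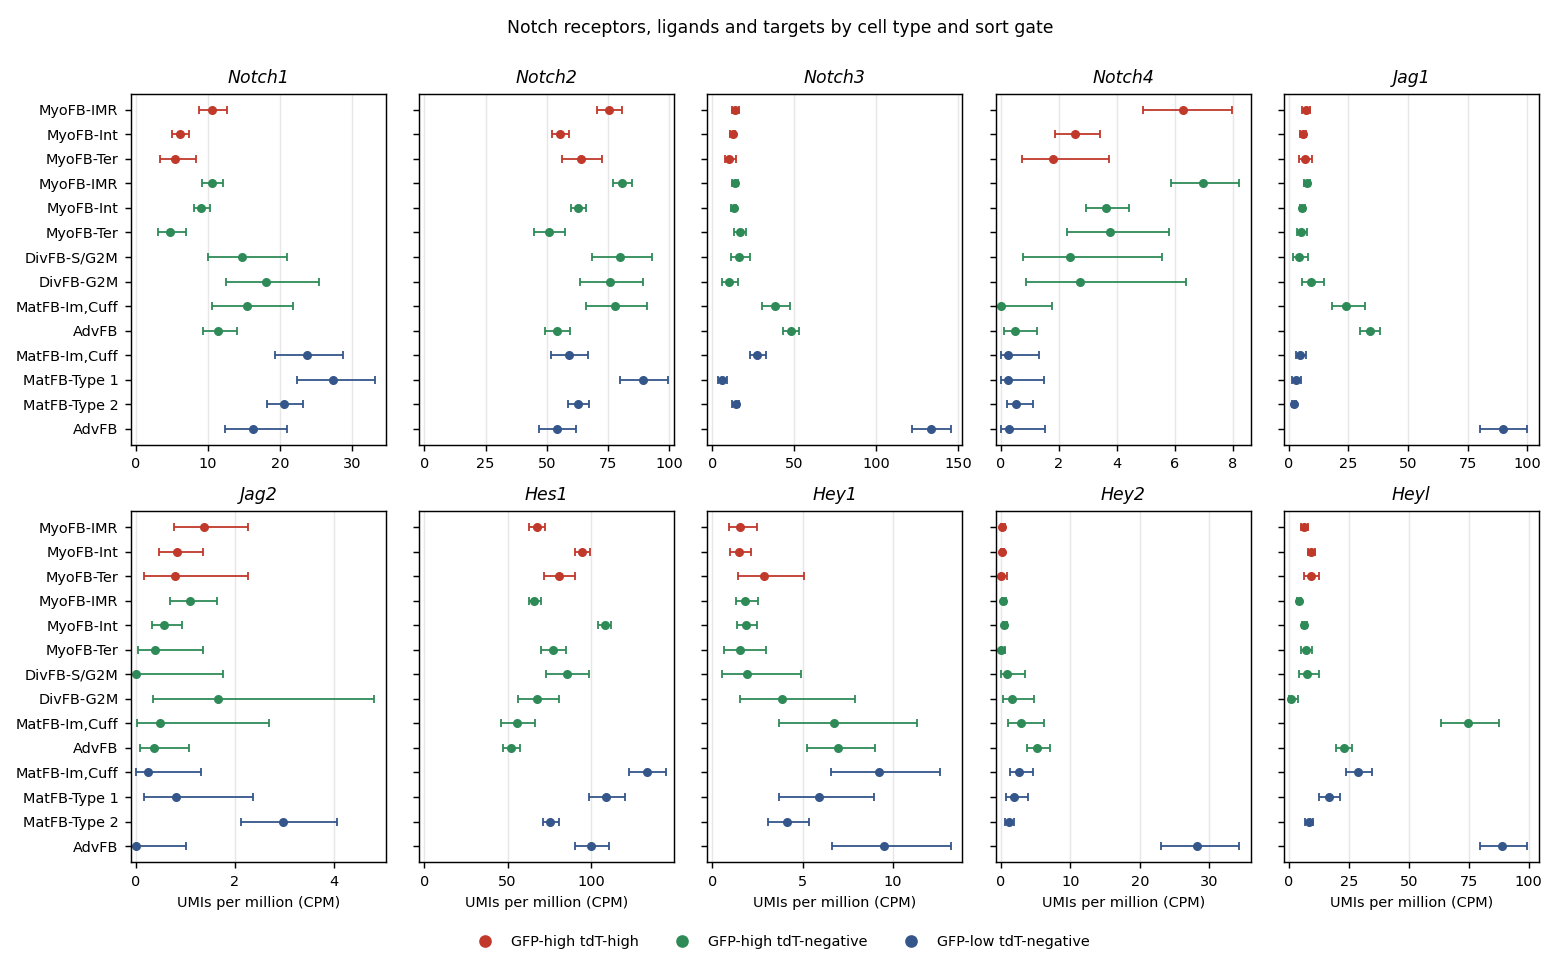
Level of each of the 10 genes (horizontal axis, CPM) in each cell type with at least 50 cells (rows), coloured by library, with exact 95% Poisson intervals and a separate scale per gene. Notch3, Jag1 and Hey2 were highest in AdvFB cells of the GFP-low tdT-negative library, at 133, 89.6 and 28.2 CPM, and Notch4 in the MyoFB-IMR cells of both GFP-high libraries, at 6.30 and 6.97 CPM.

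Among the receptors, Notch2 was the most even over cell types. Its level ran from 50.9 CPM in MyoFB-Ter cells of the unlabelled GFP-high library to 89.2 CPM in MatFB-Type 1 cells of the GFP-low library, with a median of 63.4 CPM over the 14 units. No 2 neighbours in the order of levels had intervals that stood apart, while units further apart in the order did. In unlabelled GFP-high cells the interval was 76.9 to 84.7 CPM in MyoFB-IMR and 45.0 to 57.3 CPM in MyoFB-Ter. Between 50.8% and 83.1% of the cells of each unit held a Notch2 UMI.

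Notch1 was lowest in the myofibroblasts and highest in matrix fibroblasts. In the labelled library it stood at 10.6 CPM in MyoFB-IMR, 6.13 CPM in MyoFB-Int and 5.44 CPM in MyoFB-Ter cells, and in the unlabelled GFP-high library at 10.5, 9.09 and 4.71 CPM over the same types. In the GFP-low library its levels were 27.4 CPM in MatFB-Type 1, 23.7 CPM in MatFB-Im,Cuff and 20.6 CPM in MatFB-Type 2 cells. The interval of the lowest of these, 18.2 to 23.2 CPM, lies above those of all 6 MyoFB units, of which the highest ends at 12.7 CPM.

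Notch3, the receptor known from mural cells, was highest in AdvFB cells. It stood at 47.9 CPM (95% interval 43.3 to 52.9) in AdvFB cells of the unlabelled GFP-high library and 133 CPM (122 to 146) in those of the GFP-low library. MatFB-Im,Cuff cells came next, at 38.1 CPM in the unlabelled GFP-high and 27.5 CPM in the GFP-low library. The remaining 10 units lay between 5.64 and 16.6 CPM, and intervals in this order stood apart at 2 places: below the GFP-low AdvFB cells, and below the GFP-low MatFB-Im,Cuff cells.

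Notch4, known as an endothelial receptor, was at its highest in myofibroblasts, at a low level. It stood at 6.30 CPM (4.90 to 7.98) and 6.97 CPM (5.87 to 8.21) in MyoFB-IMR cells of the labelled and unlabelled GFP-high libraries. In unlabelled GFP-high AdvFB cells it was at 0.487 CPM (0.133 to 1.25), and no UMI was seen in 110 MatFB-Im,Cuff cells of that library, which allows up to 1.45 CPM. A Notch4 UMI was found in 11.1% of MyoFB-IMR cells in both GFP-high libraries, against 0.922% of MatFB-Type 2 cells in the GFP-low library, and these 3 units have median depths of 23762, 19460.5 and 19471 UMIs. With every cell thinned to 5000 UMIs the shares were 3.21%, 4.07% and 0.307% in the same order.

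Part of the endothelial list was also high in the MyoFB-IMR cells. The 12 listed endothelial markers summed to 475 and 606 CPM in MyoFB-IMR cells of the labelled and unlabelled GFP-high libraries, and to between 30.6 and 83.0 CPM in the 3 MatFB units of the GFP-low library. Eng, a TGF-beta co-receptor that is also found on other cells, makes up most of that sum, with 331 and 444 CPM in the MyoFB-IMR cells of the 2 GFP-high libraries. Kdr, a VEGF receptor that defines endothelium, had no UMI in either unit, and Cdh5, the endothelial cadherin, had none in the labelled and 0.147 CPM in the unlabelled GFP-high MyoFB-IMR cells. Cldn5, a tight junction gene of endothelium, was at 0 and 0.147 CPM in the same 2 units, while Ramp2, Pecam1 and Erg were above 30 CPM in both, so 4 of the 12 markers reached 10 CPM. The sum of the 12, most of which is Eng in MyoFB-IMR cells, is given beside Notch4 for other units. In unlabelled GFP-high and GFP-low AdvFB cells it was 385 and 234 CPM, with Notch4 at 0.487 and 0.272 CPM. In labelled and unlabelled GFP-high MyoFB-Ter cells it was 216 and 238 CPM, with Notch4 at 1.81 and 3.77 CPM. The part of endothelial RNA in the Notch4 level was not tested.

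Of the ligands, Jag1 was, like Notch3, highest in AdvFB cells, at 33.8 CPM in the unlabelled GFP-high and 89.6 CPM in the GFP-low library, and stood at 24.1 CPM in unlabelled GFP-high MatFB-Im,Cuff cells. The other 11 units lay between 2.21 and 9.33 CPM, and GFP-low MatFB-Im,Cuff cells, among the highest for Notch3, were among these at 4.74 CPM. Jag2 was near its detection limit: 0 to 2.98 CPM over the 14 units, with at most 3.21% of the cells of a unit holding a UMI. The highest of these levels, in MatFB-Type 2 cells, rests on 39 UMIs of which 21 came from 1 cell.

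Of the target genes, Hes1 was found in every type, from 52 CPM in unlabelled GFP-high AdvFB cells to 133 CPM in GFP-low MatFB-Im,Cuff cells, with a median of 79.1 CPM. Hey1 was low throughout, from 1.48 to 9.51 CPM, with the 2 AdvFB and 2 MatFB-Im,Cuff units in the first 4 places and no neighbours apart. Hey2 was the most restricted. It stood at 28.2 CPM (23.1 to 34.2) in AdvFB cells of the GFP-low library, at 5.23 CPM in unlabelled GFP-high AdvFB cells, and at 0 to 0.519 CPM in the 6 MyoFB units. Heyl was highest in GFP-low AdvFB cells, at 89.1 CPM (79.7 to 99.3), and in unlabelled GFP-high MatFB-Im,Cuff cells, at 74.8 CPM (63.5 to 87.6), and these 2 intervals overlap. The next level was 28.9 CPM, in GFP-low MatFB-Im,Cuff cells.

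Hes1 also differed from Notch2 in how its UMIs were spread over cells. In MyoFB-Int cells thinned to 5000 UMIs, a Hes1 UMI was found in 24.5% and a Notch2 UMI in 21.3% of labelled cells, and in 26.4% and 22.6% of unlabelled GFP-high cells. The variance of Hes1 over its mean was 3.12 in the labelled and 3.24 in the unlabelled GFP-high MyoFB-Int cells, and that of Notch2 was 1.17 and 1.28. In unthinned counts the tenth of MyoFB-Int cells with the most Hes1 UMIs held 57.8% of them in the labelled and 58.6% in the unlabelled GFP-high library, against 36.3% and 39.1% for Notch2. In MatFB-Type 2 cells of the GFP-low library the variance over the mean of Hes1 was 1.42, at a level of 75.7 CPM. Over the 14 units it ran from 1.19 to 3.24, and it stood at 3.06 in labelled and 2.07 in unlabelled GFP-high MyoFB-Ter cells and at 2.56 in GFP-low AdvFB cells, so a wide spread was not particular to MyoFB-Int cells. The plot of cells by number of UMIs shows 3 of these units.

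**Figure D2:**
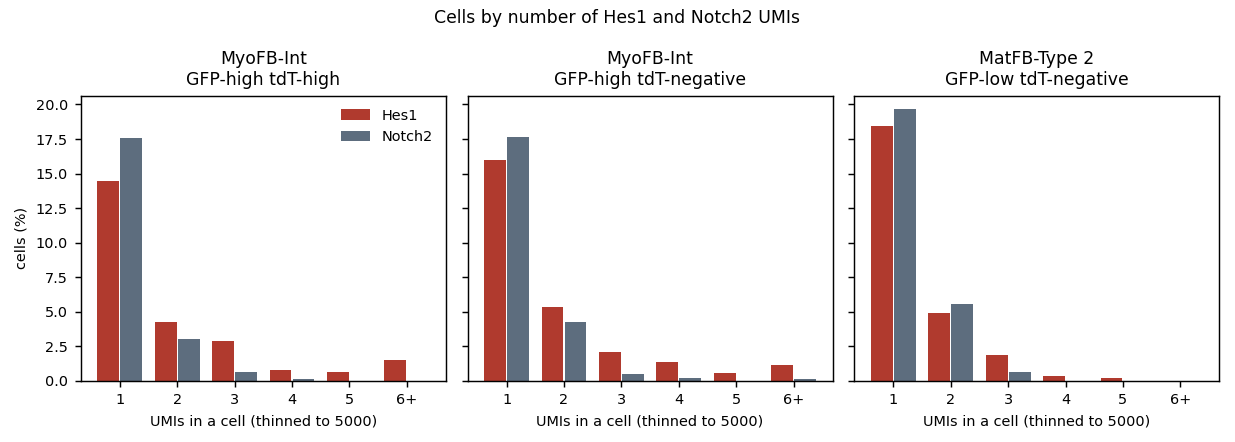
Percent of cells (vertical axis) that held 1 to 5, or 6 or more, UMIs of Hes1 or Notch2 after thinning each cell to 5000 UMIs, in 3 units; cells with no UMI are not drawn. At 6 or more UMIs there were 1.50% and 1.13% of MyoFB-Int cells for Hes1 in the GFP-high tdT-high and GFP-high tdT-negative libraries, against 0% and 0.0755% for Notch2.

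The first comparison within a type set unlabelled GFP-high against GFP-low AdvFB cells (328 and 148 cells). Of the 8 genes with enough UMIs, 4 were at least 2-fold lower in the unlabelled GFP-high cells, where 5.49% of all genes counted were, and 0 were higher, where 4.42% were. These were Notch3 at 47.9 against 133 CPM (2.78-fold lower, 2.43 to 3.18), Jag1 at 33.8 against 89.6 CPM (2.65-fold lower, 2.25 to 3.12), Hey2 at 5.23 against 28.2 CPM (5.4-fold lower, 3.75 to 7.89) and Heyl at 23.0 against 89.1 CPM (3.87-fold lower, 3.23 to 4.66). Hes1 stood at 52 against 100.2 CPM, a log2 ratio of -0.93. Notch2 was even, at 54.3 against 54.1 CPM. The median log2 ratio of the 8 was -1.16, beside 0.04 over all genes counted.

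Part of this difference was carried by the contractile AdvFB cells. Without them, 2 of the 8 genes stayed past 2-fold: the log2 ratio was -1.34 for Hey2 and -1.51 for Heyl, while Notch3 was at -0.67 and Jag1 at -0.88. The share of all genes past 2-fold was not computed without these cells, so the count of 2 has no background to be set against. Hes1 was then at -0.57.

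Within the GFP-low AdvFB cells, the 56 contractile cells were set against the other 92. The smooth muscle genes that separate these cells were not used as results, and no Notch gene was used in the clustering, but the cluster was picked with earlier results of these data known. Of the 8 genes counted, 3 were at least 2-fold higher in the contractile cells, where 8.48% of all genes were, and 0 were lower, where 13.7% were. Notch3 stood at 235 CPM (209 to 262) in contractile and 76.6 CPM (65.9 to 88.7) in other cells. Jag1 stood at 137 CPM (118 to 159) in contractile and 63.1 CPM (53.4 to 74.1) in other cells. Hey2 stood at 52.3 CPM (40.7 to 66.2) in contractile and 14.8 CPM (10.3 to 20.6) in other cells. Their ratios were 3.06 (2.54 to 3.70), 2.17 (1.74 to 2.72) and 3.53 (2.32 to 5.46).

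Heyl and Hes1 leaned the same way and stayed under 2-fold. Heyl stood at 128 CPM in contractile and 67.3 CPM in other cells, a ratio of 1.90 (1.52 to 2.38), and Hes1 at 141 against 77.5 CPM, a ratio of 1.82 (1.47 to 2.24). Notch1 (15.2 against 16.9 CPM), Notch2 (50.8 against 55.9 CPM) and Hey1 (6.82 against 11 CPM) had ratio intervals that include 1. The median log2 ratio of the 8 genes was 0.89, beside -0.06 over all genes counted. A receptor, a ligand and a target thus passed 2-fold in the same cells. At least 3 of Notch3, Jag1, Hey2 and Heyl, a set picked after their values were seen, were detected in 42 of 56 contractile cells (75%, 61.6 to 85.6), against 42.4% of the other GFP-low AdvFB cells (32.1 to 53.1). The share was 14.0% (10.5 to 18.3) in unlabelled GFP-high AdvFB cells and 12.7% (7.14 to 20.4) in MatFB-Im,Cuff cells of that library, so it was not particular to AdvFB cells there. It was 3.90% in GFP-low MatFB-Im,Cuff cells, 4.55% in the 66 GFP-low cells with a MyoFB name, and between 0% and 0.642% in the 6 MyoFB units.

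**Figure D3:**
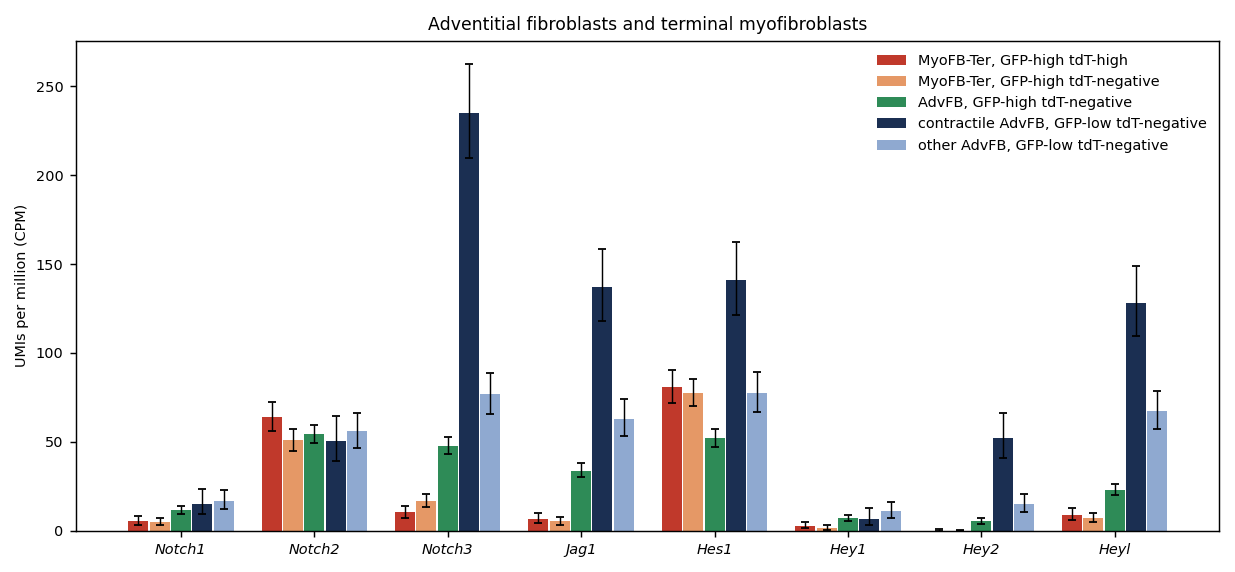
Level (vertical axis, CPM, exact 95% Poisson intervals) of 8 genes in MyoFB-Ter cells of both GFP-high libraries, in GFP-high tdT-negative AdvFB cells, and in contractile and other GFP-low tdT-negative AdvFB cells. Notch3, Jag1, Hes1, Hey2 and Heyl were highest in the contractile AdvFB cells, at 235, 137, 141, 52.3 and 128 CPM, while the MyoFB-Ter cells were low for all of these but Hes1.

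MyoFB-Ter cells held the 11 smooth muscle markers at a summed 6010 and 5867 CPM in the labelled and unlabelled GFP-high libraries. The sum was 10871 CPM in the contractile AdvFB cells and 8075 CPM in the GFP-low cells with a MyoFB name, described at the end. In the MyoFB-Ter cells Notch3 stood at 10.4 and 16.6 CPM, Jag1 at 6.73 and 5.27 CPM, and Heyl at 9.06 and 7.16 CPM. A Hey2 UMI was found in 44.6% of contractile AdvFB cells (median depth 22515 UMIs), against 0 of 190 and 0 of 303 labelled and unlabelled GFP-high MyoFB-Ter cells (19853 and 16669 UMIs), which allows shares of up to 1.58% and 0.990%. The 10 myofibroblast markers summed to 7721 CPM in contractile and 1389 CPM in other GFP-low AdvFB cells. Acta2 and Tagln are on this list and on the smooth muscle list by which the cluster was picked. Of the 10, 5 reached 50 CPM in contractile and 6 in other cells. Part of the pericyte list was also high in the contractile cells. The 10 listed pericyte markers summed to 893 CPM in contractile and 413 CPM in other GFP-low AdvFB cells, and 6 and 5 of them reached 10 CPM. Rgs5, which encodes a GTPase activator and is widely used to mark pericytes, stood at 368 CPM in contractile and 69.4 CPM in other cells, and Cspg4, the proteoglycan NG2, at 76.5 and 7.20 CPM. Pdgfrb, the PDGF receptor of mural cells, differed less, at 157 against 116 CPM. Rgs5 was also at 456 and 96.4 CPM in MyoFB-Ter cells of the labelled and unlabelled GFP-high libraries. The 10 pericyte markers, Rgs5 among them, summed to 693 and 252 CPM there. Whether vascular mural cells make up part of this cluster was not tested.

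The second comparison within a type set unlabelled GFP-high against GFP-low MatFB-Im,Cuff cells (110 and 205 cells). Of 8 genes counted, 2 were at least 2-fold higher in the unlabelled GFP-high cells, where 8.61% of all genes were, and 1 was lower, where 7.32% were. Jag1 stood at 24.1 against 4.74 CPM, a ratio of 5.09 (2.98 to 9.03), and Heyl at 74.8 against 28.9 CPM, a ratio of 2.59 (2.03 to 3.31). Hes1 stood at 55.5 against 133 CPM and was 2.40-fold lower (1.96 to 2.96). So in this type Heyl and Hes1, both known as Notch targets, stood on opposite sides.

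Different cells carry this type name in the 2 libraries. In the clustering made without Notch genes, 98 of the 110 unlabelled GFP-high cells lay in 1 cluster, which held 18 of the 205 GFP-low ones, while 81 and 89 of the GFP-low cells lay in 2 others. In the shared cluster alone, a split added after the data were seen, Jag1 stood at 27.0 against 32.5 CPM (log2 ratio -0.26, the other direction), Heyl at 77.5 against 70.3 CPM (0.14) and Hes1 at 50.0 against 70.3 CPM (-0.48). The 18 cells held 369768 UMIs, which limits their precision. Of Jag1, Heyl and Hes1, 0 were past 2-fold between cells of the same cluster. Of the other genes counted, 1 was at least 2-fold higher in the unlabelled GFP-high cells and 0 were lower. The share of all genes past 2-fold was not computed for this cluster, so these counts have no background to be set against.

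Between labelled and unlabelled GFP-high cells of the same myofibroblast type, 0 of the genes were past 2-fold. This held for 9 genes counted in MyoFB-IMR cells, where 0.522% of all genes were higher and 0.136% lower, for 10 in MyoFB-Int cells, where 0.963% were higher and 0.466% lower, and for 8 in MyoFB-Ter cells, where 5% were higher and 4.25% lower. The MyoFB-Ter name may cover different cells in the labelled and unlabelled GFP-high libraries, which hold 190 and 303 cells of that name. In the clustering made without Notch genes, the cluster whose main type was MyoFB-Ter held 145 labelled and 10 unlabelled GFP-high cells of any name. How far this shaped the MyoFB-Ter ratios was not tested. Some ratios under 2-fold had intervals that leave out 1, which cover counting error and not the spread between libraries. Heyl stood in labelled against unlabelled GFP-high cells at 6.30 against 4.22 CPM in MyoFB-IMR (ratio 1.49, 1.07 to 2.07) and 9.31 against 6.42 CPM in MyoFB-Int cells (ratio 1.45, 1.17 to 1.80). In MyoFB-Ter cells it stood at 9.06 against 7.16 CPM, with an interval that includes 1 (0.777 to 2.06). Notch1 stood at 6.13 against 9.09 CPM in MyoFB-Int cells (ratio 0.675, 0.535 to 0.847) and at 10.6 against 10.5 CPM in MyoFB-IMR cells. Notch3 stood at 10.4 against 16.6 CPM in MyoFB-Ter cells (ratio 0.625, 0.419 to 0.918). Hes1 was at 94.5 against 108 CPM in MyoFB-Int cells (ratio 0.874, 0.823 to 0.928). Notch2 was at 55.4 against 62.9 CPM in MyoFB-Int cells (ratio 0.880, 0.813 to 0.952) and, the other way, at 64.0 against 50.9 CPM in MyoFB-Ter cells (ratio 1.26, 1.05 to 1.50). For Jag1 the ratios were 0.968, 1.03 and 1.28 in MyoFB-IMR, MyoFB-Int and MyoFB-Ter cells, each with an interval that includes 1.

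**Figure D4:**
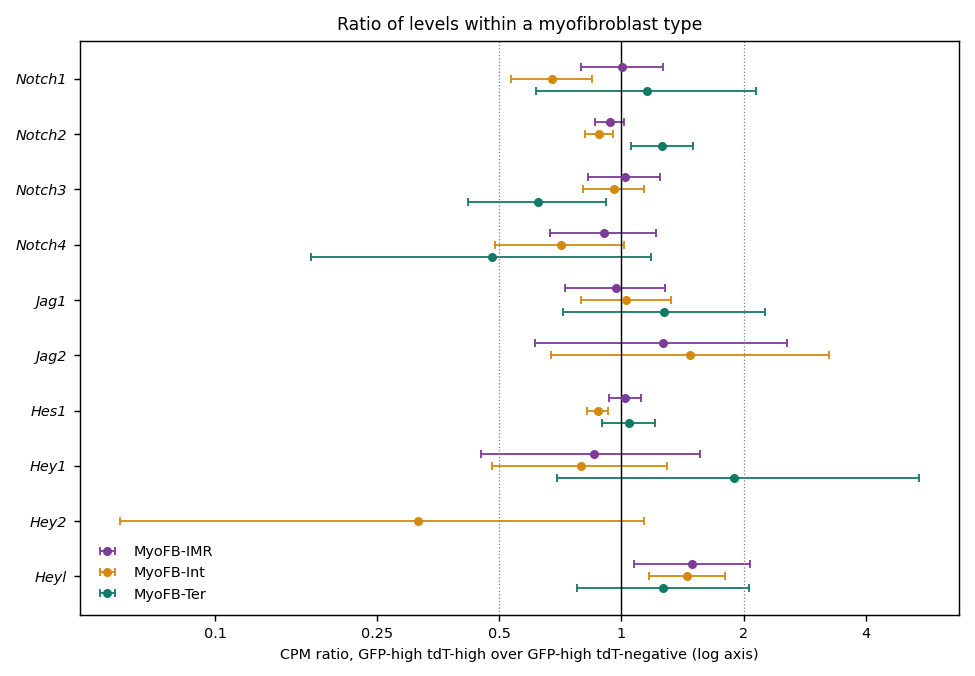
Ratio of CPM in GFP-high tdT-high over GFP-high tdT-negative cells (horizontal axis, log scale, exact 95% intervals) within each of the 3 myofibroblast types, for genes with at least 10 UMIs in either library. The line marks equal levels and the dotted lines 2-fold. Heyl lies at 1.49, 1.45 and 1.27 in MyoFB-IMR, MyoFB-Int and MyoFB-Ter cells, and the points past the dotted lines (Hey2 in MyoFB-Int, Notch4 in MyoFB-Ter) have intervals that include 1 and are under 2-fold on log2(CPM + 1).

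Over the 3 myofibroblast names, which run from MyoFB-IMR through MyoFB-Int to MyoFB-Ter, few of the 10 genes passed 2-fold, and the levels are given first. Notch1 gave the levels listed above, and Notch4 stood at 6.30, 2.57 and 1.81 CPM along the names in the labelled library and at 6.97, 3.64 and 3.77 CPM in the unlabelled GFP-high library. Heyl stood at 6.30, 9.31 and 9.06 CPM in the labelled and at 4.22, 6.42 and 7.16 CPM in the unlabelled GFP-high library. Hes1 was highest in the middle, at 67.3, 94.5 and 80.8 CPM in the labelled and at 66.1, 108 and 77.4 CPM in the unlabelled GFP-high library. So both libraries, which share 1 barcode, show Notch1 and Notch4 at their highest and Heyl and Hes1 at their lowest in MyoFB-IMR cells. As said above, the MyoFB-Ter name may cover different cells in these libraries.

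Set against each other within the labelled library, MyoFB-Ter over MyoFB-IMR cells gave 1 of 9 genes at least 2-fold lower, where 11.1% of all genes were, and 0 higher, where 5.57% were. This was Notch4, at 1.81 against 6.30 CPM (3.48-fold lower, 1.60 to 8.97, from 7 and 69 UMIs). Within the unlabelled GFP-high library 1 of 9 was lower, where 5.69% of all genes were, and 0 higher, where 2.94% were. This was Notch1, at 4.71 against 10.5 CPM (2.24-fold lower, 1.48 to 3.54), with a log2 ratio of -1.02 that was under 2-fold in 5 of the 11 alternatives. Among those 11, the changed UMI minimums and the 1.5-fold limit cannot move a log2 ratio. The other gene of the pair lay close to the limit in each library: the log2 ratio was -0.85 for Notch1 in labelled cells and -0.74 for Notch4 in unlabelled GFP-high cells. Such a share of genes called, 1 of 9, is near that of all genes. Heyl had ratios of 1.44 (0.929 to 2.19) and 1.70 (1.13 to 2.51), and Hes1 of 1.20 (1.05 to 1.37) and 1.17 (1.05 to 1.31), in the labelled and unlabelled GFP-high libraries. Those of Notch2 were 0.848 (0.732 to 0.978) and 0.630 (0.552 to 0.717) in the same order.

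**Figure D5:**
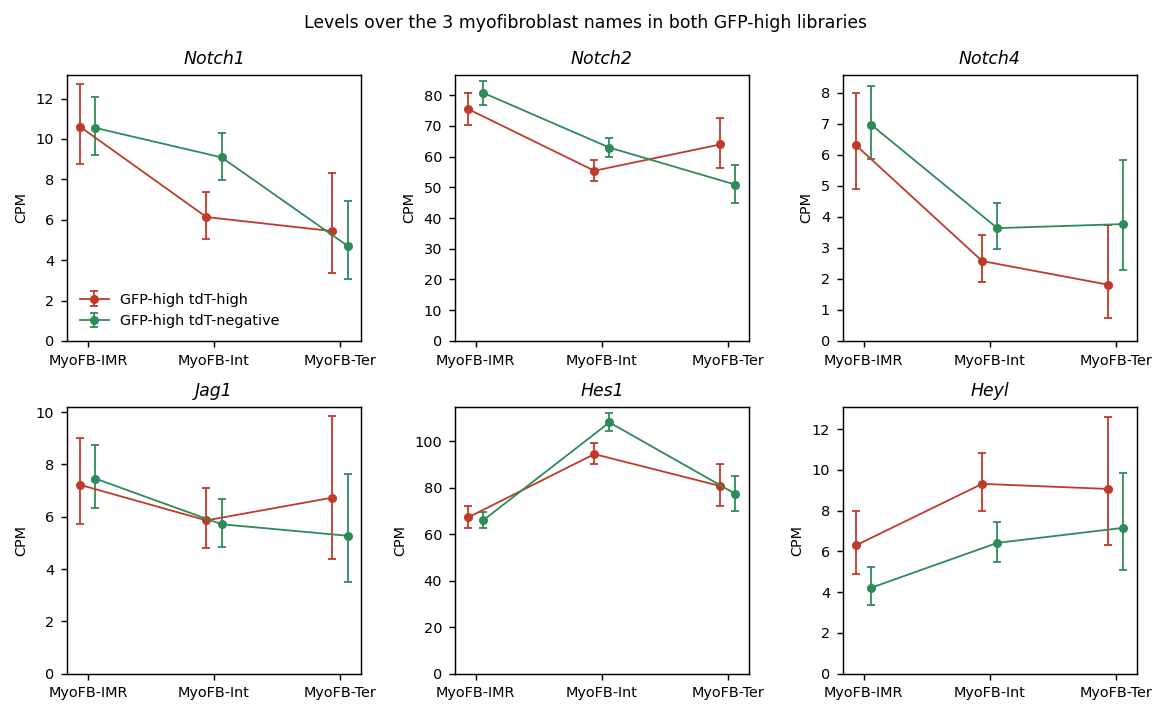
Level (vertical axis, CPM, exact 95% Poisson intervals) of 6 genes in MyoFB-IMR, MyoFB-Int and MyoFB-Ter cells of the GFP-high tdT-high and GFP-high tdT-negative libraries, joined by lines. In both libraries Notch1 and Notch4 were highest in MyoFB-IMR cells (10.6 and 6.30 CPM, 10.5 and 6.97 CPM) and Hes1 in MyoFB-Int cells (94.5 and 108 CPM).

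Of 55 other listed genes of the pathway, 54 are in the table and 42 reached 10 CPM in a unit. Delta-like ligands of the classical kind were close to absent: Dll1 stood at 0.0869, 0.218 and 0.752 CPM and Dll4 at 0.145, 0.175 and 0.226 CPM in the labelled, unlabelled GFP-high and GFP-low libraries. The shared machinery was present in every library. Rbpj, the DNA-binding partner of the receptors, stood at 158, 142 and 148 CPM and Adam10, a protease that cuts them, at 125, 119 and 98.2 CPM in the same order. All 10 listed proteases and all 7 genes of the nuclear complex reached 10 CPM, and 0 of these 17 were past 2-fold in either direction between gates, over all cells or within AdvFB or MatFB-Im,Cuff cells.

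Between unlabelled GFP-high and GFP-low cells as a whole, 3 of 51 other pathway genes counted were at least 2-fold higher and 1 lower, shares no larger than the 6.38% and 5.36% of all genes. Dlk1, a Delta-like protein that lacks the domain by which classical ligands bind, stood at 13.2 against 1.28 CPM. Neurl1a, a ubiquitin ligase of ligands, stood at 14.6 against 4.96 CPM, and Tle4, a corepressor, at 116 against 48.0 CPM. Between labelled and unlabelled GFP-high cells 0 of 49 were higher and 2 lower, beside 0.66% and 1.92% of all genes: Dlk1 at 0.377 against 13.2 CPM and Dner, a further non-classical ligand, at 2.75 against 15.8 CPM. With the types weighted alike, 0 were lower.

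Dlk1 and Dner also differed within types. In AdvFB cells 2 of 43 genes were higher in the unlabelled GFP-high library and 1 lower, beside 4.42% and 5.49% of all genes, with Dlk1 at 96.9 against 8.15 CPM and Dner at 67.0 against 25.8 CPM. In MatFB-Im,Cuff cells 4 of 43 were higher and 2 lower, beside 8.61% and 7.32% of all genes, with Dner at 187 against 19.7 CPM, Dlk1 at 25.1 against 0.711 CPM, Tle1, a corepressor, at 62.8 against 22 CPM, and Pofut1, which adds fucose to Notch receptors, at 39.1 against 16.4 CPM. Rfng, which extends that sugar, was lower there, at 5.79 against 13.0 CPM.

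Contractile over other GFP-low AdvFB cells gave 2 of 42 higher and 5 lower, both smaller shares than the 8.48% and 13.7% of all genes. Nrarp, a feedback inhibitor that is itself a Notch target, stood at 15.9 against 1.27 CPM (21 and 3 UMIs, ratio 12.5, 3.74 to 65.6), and Tle1 at 108 against 47.8 CPM. Dner was at 0 against 40.2 CPM, with 0 and 95 UMIs, and Dlk1 at 0.758 against 12.3 CPM, from 1 and 29 UMIs. Numbl, which opposes Notch receptors, stood at 31.8 against 79.6 CPM. So Nrarp was high in the cells that were also high for Notch3, Jag1 and Hey2, while both non-classical ligands were low there.

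Along the myofibroblast names the coactivators did not share 1 direction. MyoFB-Ter over MyoFB-IMR cells gave 4 of 44 genes higher and 3 lower in the labelled library, beside 5.57% and 11.1% of all genes, and 2 of 46 higher and 4 lower in the unlabelled GFP-high library, beside 2.94% and 5.69%. Maml3, a Mastermind coactivator, stood at 263 against 861 CPM in labelled and at 447 against 1050 CPM in unlabelled GFP-high cells. Maml2, of the same family, stood at 884 against 386 CPM in labelled cells, and did not pass in unlabelled GFP-high cells, at 499.9 against 461 CPM. Kat2b, an acetyltransferase, stood at 112 against 41.9 CPM and at 88.3 against 37.7 CPM, and Tle4 at 51.0 against 127 CPM and at 78.9 against 169.9 CPM, in the labelled and unlabelled GFP-high libraries.

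For the 7 genes that reached 10 CPM in a unit, the genes with the most similar levels were taken from 5459 candidates by Pearson's correlation of log2(CPM + 1) over the 14 units. These points share 3 libraries and their depths, so the values describe likeness in these data. Jag1 was most like Inhba, which encodes an activin subunit (r = 0.961), then Nfkb1 (0.945) and Cpe (0.939). Notch3 was most like Hcfc1r1 (0.931), Nfkb1 (0.922) and Gxylt2 (0.919), so Nfkb1, a subunit of NF-kappa-B, is in both lists. Notch1 was most like Dnaja1, a co-chaperone gene (0.939), Cox6b2 (0.909) and Cdc42ep4 (0.904). Hey2 was most like Fabp4, a fatty acid carrier (0.913), Ebf1, a transcription factor gene (0.901), and Htra3 (0.897). Heyl was most like Tmem64 (0.925), Smoc1 (0.924) and Fas (0.908). Both widely found genes had weaker matches, with Washc4 (0.767), Ercc6l2 (0.763) and Klhl2 (0.759) for Notch2 and Sik1 (0.743), Irs2 (0.688) and Dctn4 (0.683) for Hes1.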

How the data were processed

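The authors deposited a matrix of raw UMI counts per gene and cell and a table with the gate, cell type, total counts and percent of mitochondrial UMIs of each cell. The chemistry was 10x 3' v3.1, per the labels' protocols. Reads were processed with Cell Ranger 7.0.0 and mm10, per the submitters' processing notes. Cell filters, how cell types were called and whether introns or strand were used in counting are not given in the sources used here. A further gate (tdTomato+ GFP-) is not analysed here.

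All 6142 deposited cells were kept (5446 to 58130 UMIs each), and no doublet caller was run. For each type in a library, a gene's UMIs were summed, divided by the type's total and scaled to 1e+06 (CPM). Log2 ratios used a pseudocount of 1, and a call needed 2-fold and 10 UMIs in either group. CPM had exact Poisson, shares Clopper-Pearson and ratios conditional binomial intervals (95%). A count of 0 allows 3 counts. Comparisons of libraries within a type needed 100 cells in both, a minimum not applied to the comparison of 56 with 92 AdvFB cells inside the GFP-low library. Shares of cells were also computed on cells thinned to 5000 UMIs. Cells were clustered with scanpy 1.11.5 without any Notch list gene (2000 variable genes, 30 components, 15 neighbours, Leiden resolution 1), and the contractile cluster is the one with the highest smooth muscle sum among clusters with AdvFB cells. Other pathway genes were named from 2-fold with 10 CPM in the higher group, at most 8 per comparison. Of each gene that reached 10 CPM in a unit, the 3 most similar genes among those reaching 50 CPM were named, without unnamed, sex-linked, haemoglobin, mitochondrial or ribosomal protein genes. The calculation was tested on simulated whole-library counts with calls from 1.5-fold, so the 2-fold rule and small groups of cells were not covered. Alternatives used edgeR 4.0.16 (TMM) and DESeq2 1.42.0 (size factors) for scaling alone. The genes, lists and the contractile cluster were chosen with earlier results of these data known. R 4.3.3, Python 3.11.15, scipy 1.17.1 and pandas 2.3.3 were used.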

Additional observations from a re-analysis of the deposited data

Results flagged for a closer look

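Jag1 and Heyl leaned opposite ways under the same contrast in 2 cell types. For unlabelled GFP-high over GFP-low cells, the log2 ratio of Jag1 was -1.38 in AdvFB and 2.13 in MatFB-Im,Cuff cells, and that of Heyl was -1.91 in AdvFB and 1.34 in MatFB-Im,Cuff cells. The difference between the types was not tested, since each gate has 1 library. In the MatFB-Im,Cuff cells of the cluster that both libraries share, the ratios were -0.26 for Jag1 and 0.14 for Heyl.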

How the results depend on the processing

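No paired analysis was possible because each gate has 1 library and no test was run. Of 178 log2 ratios given by the alternatives for the 15 calls on the 10 genes, 177 kept their direction and 163 stayed past 2-fold. These tallies include the changed UMI minimums and the 1.5-fold limit, which cannot move a log2 ratio, so they overstate how stable the calls are. The exception in direction was Jag1 in MatFB-Im,Cuff cells, at -0.26 in the shared cluster alone, where 1 of the genes was higher and 0 lower, and the cells there differ by construction. Below, a comparison is named by its groups and the cause of a change was not tested unless said. Shares of all genes past 2-fold were not computed for the alternatives. A pseudocount of 5, which shrinks low genes, left 0 higher and 0 lower for unlabelled GFP-high over GFP-low cells as a whole (Notch4 0.72, Hey2 -0.72, Heyl -0.94), and 0 lower in each MyoFB-Ter over MyoFB-IMR comparison (Notch1 -0.68, Notch4 -0.73). Of the other pathway genes it left 0 lower in MatFB-Im,Cuff cells, 1 higher and 2 lower in unlabelled GFP-high and 2 higher in labelled MyoFB-Ter cells, and 3 lower in contractile cells. Notch1 in unlabelled GFP-high MyoFB-Ter cells was also under 2-fold, leaving 0, under TMM scaling (-0.98), DESeq2 size factors (-0.96), the mean of each cell's CPM (-0.93) and without the 5% of cells with most UMIs (-0.99). Thinning to 5000 UMIs left 1 lower between the GFP gates (Heyl -0.78), 2 lower in MatFB-Im,Cuff cells, 1 lower for labelled over unlabelled GFP-high MyoFB-Ter cells and 2 lower for MyoFB-Ter over MyoFB-IMR in unlabelled GFP-high cells. With it, other pathway genes were 1 higher between the GFP-high libraries, 5 higher in AdvFB, 4 lower in MatFB-Im,Cuff, 1 higher in MyoFB-Ter (unlabelled GFP-high) and 6 higher in contractile cells. Without the contractile cluster 2 genes were lower in AdvFB cells and 1 other pathway gene higher. Calls from 1.5-fold, which admit smaller changes, gave 7 lower between the GFP gates, 2 lower between the GFP-high libraries, 2 lower in MatFB-Im,Cuff, 1 higher and 2 lower for labelled over unlabelled GFP-high MyoFB-Ter cells, 1 higher with 4 lower and 1 higher with 2 lower for MyoFB-Ter over MyoFB-IMR (unlabelled GFP-high, then labelled), and 5 higher with 1 lower in contractile cells. For other pathway genes they gave 9 higher and 5 lower, 2 higher between the GFP-high libraries, 5 higher and 3 lower in AdvFB, 7 higher in MatFB-Im,Cuff, 4 higher and 6 lower in the MyoFB-Ter comparisons, and 7 higher in contractile cells. Of other pathway genes, a minimum of 50 UMIs, which tests fewer genes, left 0 lower in AdvFB, 1 lower in MatFB-Im,Cuff, 1 and 2 higher in the MyoFB-Ter comparisons and 1 higher with 2 lower in contractile cells. With no minimum, under 10% mitochondrial UMIs, TMM scaling or totals without mitochondrial, ribosomal and haemoglobin genes, 2 were lower in AdvFB or between the GFP gates. Weighted types left 0 lower between the GFP-high libraries, and without the 5% of cells with most UMIs 1 was higher in contractile cells. Notch2, even between the GFP gates at 0.07, was at -0.02 under TMM or DESeq2 scaling. Depth limits Jag2, Hey1, Hey2 and Notch4 most, which had 0 to 14 UMIs in several units.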

Other observations

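The GFP-low library also held 66 cells with a MyoFB name, spread over its MyoFB types and in no comparison of the report. Their 11 listed smooth muscle markers summed to 8075 CPM. In these cells Notch3 stood at 24.8 CPM (17.5 to 34.2), Jag1 at 15.4 CPM (9.77 to 23.1) and Heyl at 12.7 CPM (7.67 to 19.9). In the MyoFB cells of the labelled and unlabelled GFP-high libraries Notch3 stood at 12.6 and 13.5 CPM, Jag1 at 6.41 and 6.34 CPM and Heyl at 8.29 and 5.64 CPM. Notch4 had 3 UMIs in these 66 cells (2.01 CPM, 0.415 to 5.88).

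A single MatFB-Type 2 cell of the GFP-low library held 21 Jag2 UMIs, of 43 in that library. In no other library did a cell hold more than 3.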
